A study of Drosophila melanogaster with 16 samples.

Results

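Heads of virgin female Drosophila melanogaster that had fed for 12 hrs on food with pentylenetetrazole (PTZ) were compared with heads of females kept for the same time on normal food (NF). The comparison rests on 4 of the 16 two-channel arrays of the series, chosen as all those whose titles give the 12 hrs time-point, and on each of them PTZ and NF head RNA were hybridised together. PTZ flies were Oregon-R wild type adults, 3 to 4 days old, and began the treatment as 30 individuals per vial on food holding 8 mg/ml of the drug. NF flies had the same strain, age and vial size and no drug, and RNA of both came from pools of frozen heads, described as separate vial sets. A growth text attached to these samples speaks of males, whereas titles and treatment texts give virgin females. In replicates 1 and 2 PTZ RNA carried Cy5, and in replicates 3 and 4, the dye swaps, it carried Cy3. The other arrays held flies on the 2nd and 7th day of PTZ and on the 14th day, after withdrawal, with 4 arrays each.

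PTZ is a convulsant that blocks GABA-gated chloride channels, and repeated dosing in rodents is a standard way to bring on seizures. In flies, GABA is made by the decarboxylase Gad1 and acts through ligand-gated chloride channels, of which Lcch3 is a subunit. The fly head holds brain, eyes and muscle, and it also holds a sheet of fat body, the tissue that stores lipid and secretes lipoproteins into the haemolymph. A ratio of whole head RNA cannot tell fewer cells of a type apart from less RNA per cell, and since it gives no level of a gene, the makeup of the heads could not be checked from markers.

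Of 13059 features on the array, namely 6793 named genes and 6266 unnamed pairs of neighbouring spots, 5760 had a value on at least 3 of the 4 arrays and were tested, 3022 of them named. All values below are log2 ratios of PTZ over NF, centred on each array's median, so 0 stands for the middle feature of an array. Replicate 4 was the thinnest array, with 8709 spots against 13761 to 15763 on the others, and 2119 of the 2657 features measured on 3 arrays lacked it. Duplicate spots had a Spearman correlation of 0.470 (replicate 3) to 0.698 (replicate 1) over spot pairs.

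No gene differed between PTZ and NF heads after 12 hrs at an adjusted p under 0.05 in limma with a term for dye orientation (0% of 5760, smallest adjusted p 0.332). At an unadjusted p under 0.05, 166 features (2.88%) lay below 0 and 183 (3.18%) above it, together 6.06% of those tested. The one-class SAM statistic, at an estimated false discovery rate of 0 and without a dye term, called 1 feature lower, an unnamed spot pair. The limma counts at an unadjusted p under 0.05 fell to 57 lower and 49 higher without replicate 1, where only features on all remaining arrays were tested. They fell to 81 and 56 without the dye term, and with limma's prior set to trend and robust 32 were lower and 146 higher. Differences were small, with the central 90% of estimates between -0.24 and 0.22, and 83 features were below -0.5 and 45 above 0.5. The 24 lead genes described first are those named genes with the smallest p among those of a like sign on every array, 12 on each side. Members of gene lists follow, many of them with values of both signs, and no gene in either group passed the adjusted threshold.

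The 12 lead genes below 0 had estimates between -0.51 and -0.27. CG14687 had the smallest p among them, with log2 ratios of -0.60, -0.52, -0.49 and -0.43 in replicates 1 to 4, an estimate of -0.51 ± 0.066 (SE) and 0.703 times the NF level. Its 8 spot values were all below 0 and both dye orientations gave like values (unadjusted p 0.000582, adjusted p 0.535, limma). The gene apolpp encodes the apolipophorin precursor, the apolipoprotein B-like carrier of the haemolymph that the fat body secretes. It had log2 ratios of -0.70, -0.26, -0.44 and -0.61 and an estimate of -0.50 ± 0.099, with all 16 of its spot values below 0 and replicate 2 the nearest to 0.

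The channel through which secreted proteins cross the endoplasmic reticulum membrane is built of Sec61 subunits, and its small subunits were both on the lower side. Sec61gamma had log2 ratios of -0.30, -0.62, -0.27 and -0.41 (estimate -0.40 ± 0.085). Sec61beta had -0.21, -0.48, -0.31 and -0.26 (estimate -0.31 ± 0.078). Surf4, a receptor that loads cargo for export from that compartment, had -0.41, -0.40, -0.18 and -0.29 (estimate -0.32 ± 0.066). PIG-N, an enzyme of the glycolipid anchor that fixes proteins to the cell surface, had -0.28, -0.67, -0.29 and -0.28, so 3 arrays were nearly alike and replicate 2 stood below them. In each of these 4 genes no spot value was above 0.

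A pair of these 12 genes act in translation. The gene kra, whose protein binds initiation factors and holds translation down, had log2 ratios of -0.47, -0.19, -0.53 and -0.53 (estimate -0.43 ± 0.077). eIF4G1, the scaffold on which the cap-binding complex assembles, had -0.54, -0.39, -0.067 and -0.20 (estimate -0.30 ± 0.071), with the PTZ-in-Cy5 arrays lower than the dye swaps. The odorant-binding proteins Obp56e (estimate -0.45 ± 0.091) and Obp19c (-0.40 ± 0.099) carry odorants in the fluid of the sensilla. The spots of Obp19c disagreed, with 3 of 13 values above 0 and a range of -2.42 to 0.46 in replicate 1. The gene slf, a lectin of the cuticle (-0.27 ± 0.068), and CG5171 (-0.29 ± 0.067) completed the 12 lead genes below 0.

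**Figure D1:**
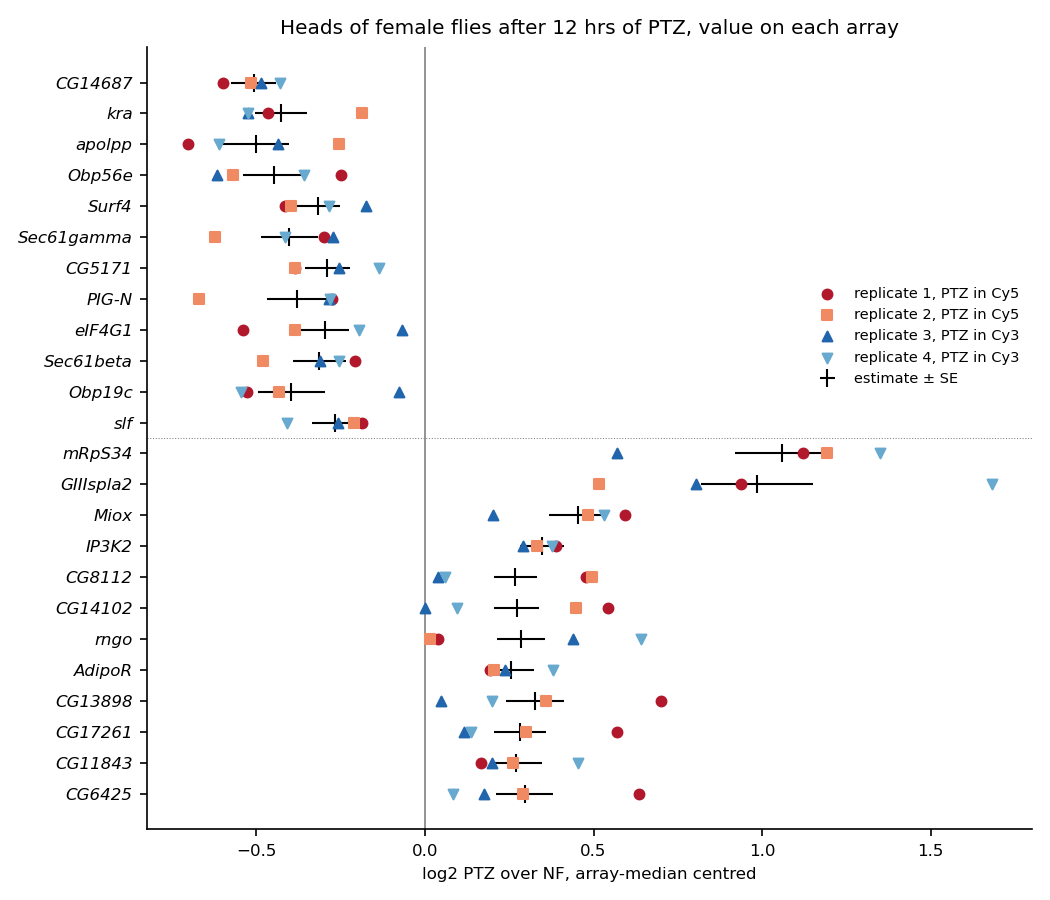
The 12 named genes below 0 and the 12 above 0 with the smallest p are plotted down the page and log2 PTZ over NF along it, with 1 point for each of the 4 arrays and a black bar for the estimate ± SE. The genes were chosen for having 1 sign on all 4 arrays, so the absence of overlap with 0 is part of the choice; mRpS34 and GIIIspla2 lie near 1, and the other 22 between -0.51 and 0.45.

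On the higher side a pair of genes stood well apart from the rest. mRpS34, a protein of the small subunit of the mitochondrial ribosome, had log2 ratios of 1.12, 1.19, 0.57 and 1.35 in replicates 1 to 4. Its estimate was 1.06 ± 0.14, a 2.08-fold PTZ over NF ratio, with replicate 3 the lowest and all 8 spot values above 0 (unadjusted p 0.000643, adjusted p 0.535, limma). GIIIspla2, a secreted phospholipase A2 that frees fatty acids from membrane phospholipids, had 0.94, 0.52, 0.80 and 1.68, an estimate of 0.98 ± 0.17 and a 1.98-fold ratio. Replicate 4 gave its highest value and replicate 2 its lowest, and its 8 spot values were above 0 as well.

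The other 10 lead genes on this side had estimates of 0.25 to 0.45. Miox, the oxygenase that opens the ring of myo-inositol, had 0.59, 0.48, 0.20 and 0.53 (estimate 0.45 ± 0.084). IP3K2, a kinase that phosphorylates the second messenger inositol trisphosphate, had 0.39, 0.33, 0.29 and 0.38, the narrowest range among the 24 lead genes (estimate 0.35 ± 0.066). AdipoR, a receptor of the adiponectin family, had 0.19, 0.21, 0.24 and 0.38 (estimate 0.25 ± 0.068). In CG8112, which the gene table also calls ACAT after the enzyme that esterifies sterols, the values split by dye, at 0.48 and 0.50 with PTZ in Cy5 against 0.038 and 0.059 with PTZ in Cy3. The gene rngo split the other way, with 0.039 and 0.016 against 0.44 and 0.64. CG14102, CG13898, CG17261, CG11843 and CG6425 had estimates of 0.27 to 0.33, and in all of these but CG11843 both PTZ-in-Cy5 arrays were above both dye swaps.

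In most features the dye effect was larger than the PTZ estimate. Arrays of 1 orientation correlated positively (Spearman 0.576 between replicates 1 and 2, 0.371 between replicates 3 and 4), whereas arrays of opposite orientation, once turned to PTZ over NF, correlated between -0.440 and -0.316 over the features they shared. Left as red over green, the same pairs run from 0.316 to 0.440, so the dye coefficient below is also the mean that the arrays would give if the swaps were left unturned. The absolute dye coefficient had a median of 0.158 against 0.0806 for the absolute PTZ estimate, and was the larger in 4056 of 5760 features (70.4%). No feature passed an adjusted p under 0.05 for the dye (0%), but 1558 (27.0%) had an unadjusted p under 0.05, against 349 (6.06%) for PTZ in the same fit, and 238 passed the adjusted threshold with the trend and robust prior. The median SD over arrays was 0.242 without the dye term and 0.140 with it. Among the 24 lead genes the dye coefficient ran from -0.26 (GIIIspla2) to 0.22 (CG14102), and in 7 of them its size was above that median of 0.158. A gene with 1 sign on all 4 arrays cannot have a dye coefficient larger than its PTZ estimate, so the choice of these genes fixes that order.

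**Figure D2:**
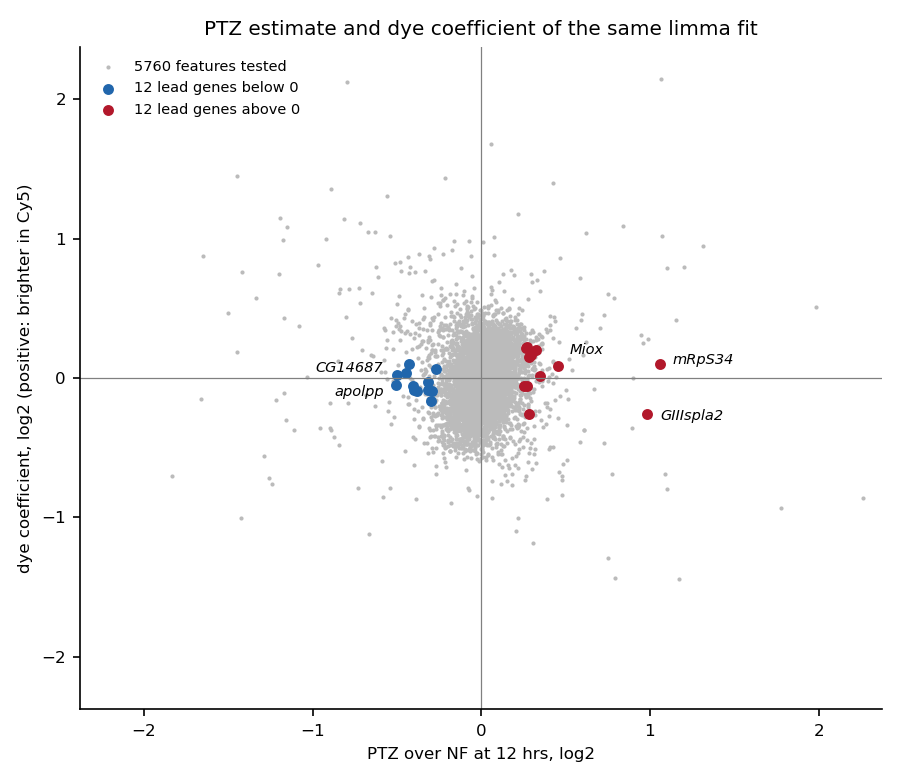
Each of the 5760 tested features is a point, with the PTZ over NF estimate along the page and the dye coefficient of the same fit up it, both in log2 units on axes of equal length. The grey cloud is taller than it is wide, and the 24 lead genes, in colour, lie to its left and right with dye coefficients from -0.26 to 0.22, a narrow range that the choice of genes with 1 sign on all arrays partly sets.

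In several lists most genes had a dye coefficient of 1 sign. Of the neurotransmitter receptors measured, 8 of 8 had a negative coefficient (median -0.26), meaning a stronger Cy3 signal, and so had 5 of 5 genes of the list of neuronal activity genes (median -0.43) and 8 of 9 clock genes. The transcription factor gene kay, the fly Fos, is an example of such a split, with -0.21 and -0.46 where PTZ was in Cy5 against 0.43 and 0.64 where it was in Cy3, and a PTZ estimate of 0.10. Cytosolic ribosomal proteins had the opposite sign (14 of 16 positive, median 0.15), as had cuticle genes (19 of 23, median 0.15) and subunits of the respiratory chain and ATP synthase (25 of 32, median 0.095), beside 2884 of all 5760 features. In all, 11 lists of at least 5 measured genes, those chosen after values were seen left out, had at least 75% of coefficients on 1 side at 12 hrs. On the 2nd day array set 9 of them had most genes on the same side, among them the receptors (6 of 7 negative), the clock genes (7 of 7 negative), the cytosolic ribosomal proteins (13 of 14 positive) and the cuticle genes (18 of 19 positive), beside 48.1% of all 4438 features negative and 51.9% positive. The other 2 did not: amino acid metabolism and transport had 12 of 14 negative at 12 hrs (median -0.12) and 4 of 10 on the 2nd day (median 0.055), and lipid storage, release and oxidation had 12 of 16 (median -0.13) and 7 of 16 (median 0.056). Across 4438 features the dye coefficients of 12 hrs and of the 2nd day had a Spearman correlation of 0.376, and the PTZ estimates one of 0.136. These points share the array design and the probes, and the correlation with the 7th day was 0.143 for the dye and -0.046 for PTZ.

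**Figure D3:**
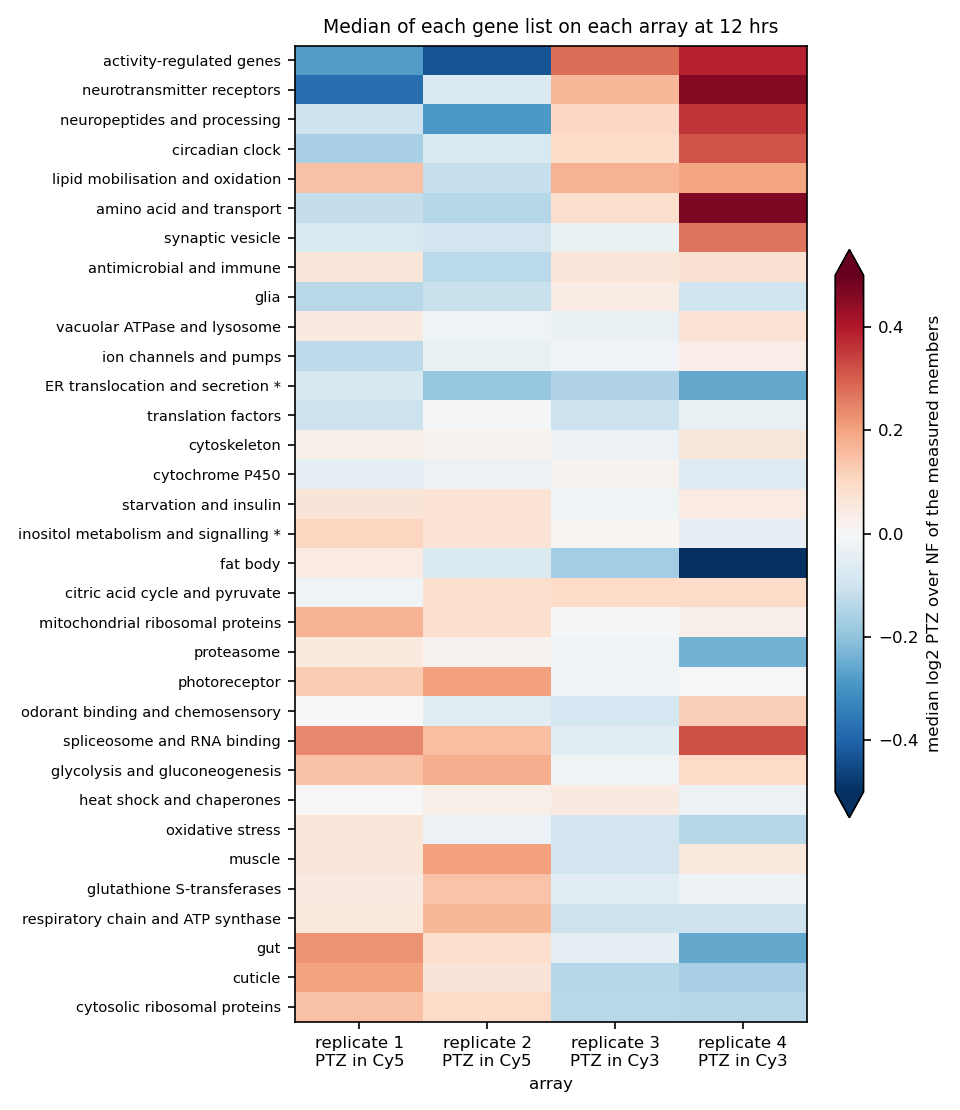
Rows are gene lists with at least 5 measured members, ordered by median dye coefficient, columns are the 4 arrays at 12 hrs, and colour gives the median log2 PTZ over NF of the measured members, cut at ±0.5 (lists with an asterisk were chosen after values were seen). At the top and at the bottom the colour turns between replicates 1 and 2, with PTZ in Cy5, and replicates 3 and 4, with PTZ in Cy3, while for translocation and secretion genes it stays on 1 side.

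Lists of genes of excitable cells, on which the drug's known target bears, had medians close to 0. Of 6 genes of GABA synthesis, breakdown, uptake and receptors with a related chloride channel, 4 were measured and none had an unadjusted p under 0.05. Gad1 was at 0.10 ± 0.072, the GABA transaminase gene Gabat at -0.052 ± 0.064 and Lcch3, on 3 arrays, at -0.023 ± 0.098. None of 14 synaptic vesicle genes, 8 neurotransmitter receptors, 5 activity genes, 9 clock genes or 9 neuropeptide genes had an unadjusted p under 0.05, and the medians of these lists ran from -0.041 to 0.031, beside 0.0037 over all features. On single arrays the receptor median was far from 0, at -0.38 in replicate 1 and 0.46 in replicate 4. Of 18 ion channels and pumps 2 were lower at an unadjusted p under 0.05, beside 2.88% of all features. These were nrv3, a subunit of the sodium pump in neurons (-0.74, -0.38, 0.10 and -0.22, estimate -0.31 ± 0.099), and Irk1, an inwardly rectifying potassium channel (-0.086, -0.14 and -0.42 on 3 arrays, estimate -0.27 ± 0.088). The calcium release channel RyR had 1 array of opposite sign (-0.28, 0.12, -0.29 and -0.95) and an estimate of -0.35 ± 0.14. Among 13 glial genes only Gs2, a glutamine synthetase, which turns glutamate into glutamine, had such a p (1 lower, beside the same 2.88%), with -0.26, -0.32, -0.051 and -0.23 (estimate -0.22 ± 0.071).

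Enzymes of sugar breakdown lay mostly above 0. Of 12 measured genes of glycolysis and gluconeogenesis 10 had estimates above 0 and 2 below, 2 were higher at an unadjusted p under 0.05 against 3.18% of all features, and the list had a median of 0.12 beside 0.0037 over all features. On replicates 1 to 4 the list medians were 0.15, 0.18, -0.02 and 0.10. It was among the lists with dye coefficients mostly of 1 sign (9 of 12 positive, and 10 of 11 on the 2nd day). Tpi, triose phosphate isomerase, had 0.25, 0.041, 0.22 and 0.64 (estimate 0.29 ± 0.098), and Pgi, glucose phosphate isomerase, 0.19, 0.42, 0.031 and 0.67 (0.33 ± 0.13), each above 0 on all arrays and highest in replicate 4. Single spots did not all agree, as 2 of 12 values of Tpi, both in replicate 2, and 1 of 8 of Pgi were below 0. Pepck2, of gluconeogenesis, split by dye, with 0.77 and 0.44 against -0.079 and -0.27. Gpdh1, which links glycolysis to lipid synthesis, was 1 of the 2 genes below 0, at -0.083 ± 0.087. In the citric acid cycle and pyruvate list 6 of 10 genes were above 0, with Mdh1, the cytosolic malate dehydrogenase, at 0.30 ± 0.075 and AcCoAS, which makes acetyl-CoA from acetate, at 0.30 ± 0.089 as the 2 genes with an unadjusted p under 0.05, beside the same 3.18% higher. Mdh1 had 0.67 and 0.60 with PTZ in Cy5 against -0.15 and 0.094 with PTZ in Cy3, whereas AcCoAS was above 0 on every array (0.19, 0.26, 0.18 and 0.56). All 8 muscle genes measured had estimates above 0 too, from 0.045 (Act79B) to 0.25 (Mlc2), none with an unadjusted p under 0.05. Their list medians on replicates 1 to 4 were 0.06, 0.20, -0.092 and 0.054. Their part in the sugar enzymes' values was not tested. Of 32 genes of the respiratory chain and ATP synthase 16 lay on each side, and ND-75, a subunit of complex I, was the 1 gene lower at an unadjusted p under 0.05, beside 2.88% of all features. It split by dye, with 0.19 and 0.22 where PTZ was in Cy5 against -0.54 and -0.61 where it was in Cy3 (estimate -0.19 ± 0.065, dye coefficient 0.39).

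Lipid genes were found on both sides. Of 16 measured genes of lipid storage, release and oxidation, 9 were above 0 and 7 below, with 3 higher and 1 lower at an unadjusted p under 0.05, beside 3.18% higher and 2.88% lower over all features. GIIIspla2 and Lip4, a lipase (0.37, 0.033 and 0.56 on 3 arrays, estimate 0.38 ± 0.11), were higher beside AcCoAS. Pect, the enzyme that activates ethanolamine for membrane phospholipid synthesis, was lower, with -0.36, -0.88, -0.064 and -0.44 (estimate -0.44 ± 0.12). Of 9 fat body genes 5 were below 0 and 4 above, and apolpp was the 1 gene with an unadjusted p under 0.05. Of its partners in lipoprotein assembly, Apoltp, the lipid transfer particle, had 0.13, -0.36, -0.17 and -0.69 (estimate -0.27 ± 0.13), with replicate 1 above 0, and Mtp, the triglyceride transfer protein that loads lipid onto apolipophorin, stood at -0.24 ± 0.11 on 3 arrays. The 4 fat body genes above 0 were Sodh1, a sorbitol dehydrogenase, at 0.30 ± 0.15 and Obp99a, CG4716 and Npc2b at estimates of 0.11, 0.10 and 0.096, each on 3 arrays. Yp3, a yolk protein, had values of both signs (0.83, -0.051, -0.34 and -0.76). Among 13 starvation and insulin genes, Mal-A2, a maltase, was higher at 0.25 ± 0.065 beside Lip4, with 0.59 and 0.53 where PTZ was in Cy5 against -0.074 and -0.026 where it was in Cy3.

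In the protein synthesis lists, 14 of 23 translation factors were below 0, 3 of them at an unadjusted p under 0.05 against 2.88% of all features, and none was higher at that level. Beside eIF4G1 these were eIF4B, which helps unwind messenger leaders (-0.78, -0.55, 0.17 and -0.077, estimate -0.31 ± 0.083), and eIF6, which keeps ribosomal subunits apart (-0.21, -0.49 and -0.28 on 3 arrays, estimate -0.32 ± 0.11). Mitochondrial ribosomal proteins had 15 of 26 genes above 0 and 4 higher at an unadjusted p under 0.05, beside 3.18% of all features. After mRpS34 these were mRpL12 at 0.19 ± 0.066, mRpL40 at 0.19 ± 0.073 and mRpS31 at 0.25 ± 0.089, all far below mRpS34. Of 16 cytosolic ribosomal proteins, RpS19b had the 1 unadjusted p under 0.05, at -0.97 ± 0.12 from values of 0.028, -0.34 and -1.78 on 3 arrays, of which replicate 4 was far from 0. On 3 arrays the fit weights a lone array of 1 dye orientation as much as the pair of the other, so that estimate leans on replicate 4. Among genes of translocation, signal peptide cleavage and vesicle traffic, a list put together after the lead genes were seen and so no support for them, 12 of 16 were below 0 with a median of -0.089, and Sec22 (-0.27 ± 0.088) joined Surf4, Sec61gamma and Sec61beta. The inositol list, drawn up in the same way, had 12 of 17 genes above 0.

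**Figure D4:**
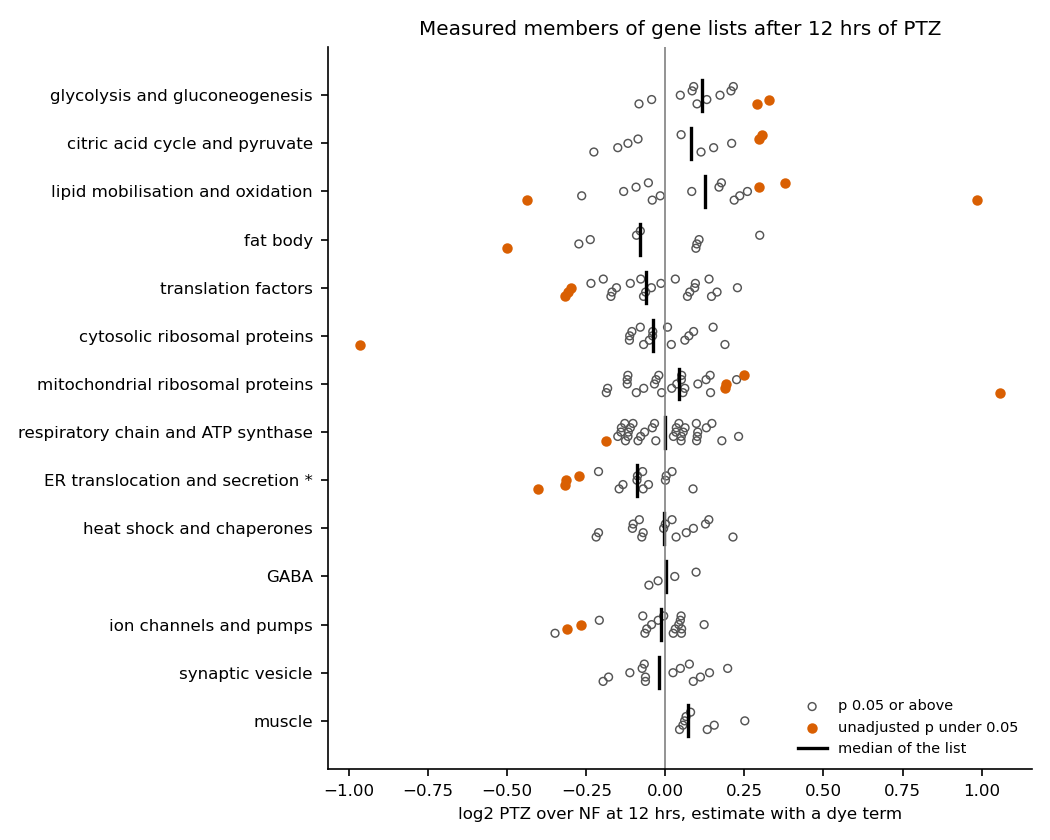
Each circle is a measured gene of the list named at the left, placed by its PTZ over NF estimate at 12 hrs in log2 units, filled where the unadjusted p was under 0.05, and the black bar is the list median (the list with an asterisk was chosen after values were seen). Most genes lie within 0.25 of 0, with mRpS34 and GIIIspla2 far to the right and RpS19b far to the left.

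Detoxification, stress and other lists held few genes with an unadjusted p under 0.05, to be read beside 2.88% lower and 3.18% higher over all features. Of 39 cytochrome P450 genes, Cyp4ac1 was lower (-0.67, -0.52 and -0.34 on 3 arrays, estimate -0.47 ± 0.093) while Cyp6a19 (0.27 ± 0.089) and Cyp4d2 (0.27 ± 0.094) lay above 0, all 3 with an unadjusted p under 0.05. Of 13 glutathione S-transferases GstT4 was higher, at 0.23 ± 0.080. None of 16 heat shock genes, 15 proteasome genes, 12 antimicrobial and immune genes, 10 oxidative stress genes, 10 photoreceptor genes, 23 cuticle genes or 3 UDP-glycosyltransferases had such a p. The same held for 11 genes of splicing and RNA binding, 5 of the cytoskeleton, 4 histone and chromatin genes and the markers of gut (6), hemocytes (4) and ovary (4). All 6 gut estimates were above 0 (median 0.074), but the list split by dye. Its medians were 0.23 and 0.088 with PTZ in Cy5 against -0.049 and -0.26 with PTZ in Cy3. Of 17 genes of the vacuolar ATPase and lysosome, Vha100-4 and VhaAC39-2, both subunits of the pump, had such a p. Vha100-4 had 0.54 and 0.46 with PTZ in Cy5 against -0.076 and -0.052 with PTZ in Cy3, so it was not above 0 on the dye swaps (estimate 0.22 ± 0.065). VhaAC39-2 had -0.029, -0.37 and -0.62 on 3 arrays (estimate -0.41 ± 0.11). CG8654, 1 of 14 genes of amino acid metabolism and transport, had 0.56, -0.078, 0.61 and 1.35 (estimate 0.61 ± 0.17). Of 16 odorant-binding and chemosensory genes 8 lay on each side, Obp56e and Obp19c among those below 0.

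Flies on the 2nd and 7th day of PTZ were separate animals on separate arrays and did not enter the rule that chose the 24 lead genes, although the gene lists were drawn up with earlier results of the series known. At an unadjusted p under 0.05 the 2nd day arrays had 266 lower (4.91%) and 166 higher (3.07%) features of 5415 tested, and the 7th day arrays 410 (5.62%) and 397 (5.45%) of 7289. Of the 12 lead genes below 0, 11 were below 0 again on the 2nd day, beside 45.4% of the 4438 features measured at both times. On that side 6 had an unadjusted p under 0.05, beside 4.73% of those features. They were apolpp (-0.73 ± 0.11), CG14687 (-0.56 ± 0.13), Sec61gamma (-0.35 ± 0.066), Sec61beta (-0.30 ± 0.060), PIG-N (-0.28 ± 0.079) and CG5171 (-0.24 ± 0.071). The values of apolpp on the 2nd day were -0.85, -0.27, -0.83 and -0.95, again with replicate 2 nearest to 0, and those of Sec61gamma were -0.27, -0.48, -0.38 and -0.27. Obp19c was the exception among the 12, at 0.46 ± 0.23.

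Of the lead genes on the higher side 11 were measured on the 2nd day, 8 of them above 0 and 3 below, where 45.4% of all features were below 0. Miox (0.28 ± 0.070), IP3K2 (0.18 ± 0.058) and CG8112 (0.25 ± 0.057) were higher at an unadjusted p under 0.05, beside 3.38% of all features. Another 2 were lower at that level, beside 4.73%. The pair with the highest ratios at 12 hrs lay on the other side. mRpS34 had -0.73, -0.29, -0.49 and -1.09 on the 2nd day and -0.50, -1.26, -0.64 and -1.20 on the 7th day, so all 4 arrays of each later time were below all those of 12 hrs. GIIIspla2 had -0.044, -0.022, -0.27 and -0.33 on the 2nd day, against 0.52 to 1.68 at 12 hrs. CG8654, named after its values were seen, was at -1.08 on the 2nd day, and Pect, below 0 at 12 hrs, was at 0.24. The differences between times were fitted over 8 arrays with a dye term for each time. For mRpS34 they were 1.71 ± 0.22 and 1.96 ± 0.25 against the 2nd and the 7th day, and did not pass (adjusted p 0.425 and 0.133, limma). No feature passed at an adjusted p under 0.05 in either comparison (0% of 4438 and 0% of 4460). At an unadjusted p under 0.05 there were 256 of the 4438 features for 12 hrs minus the 2nd day. For 12 hrs minus the 7th day there were 489 of the 4460.

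**Figure D5:**
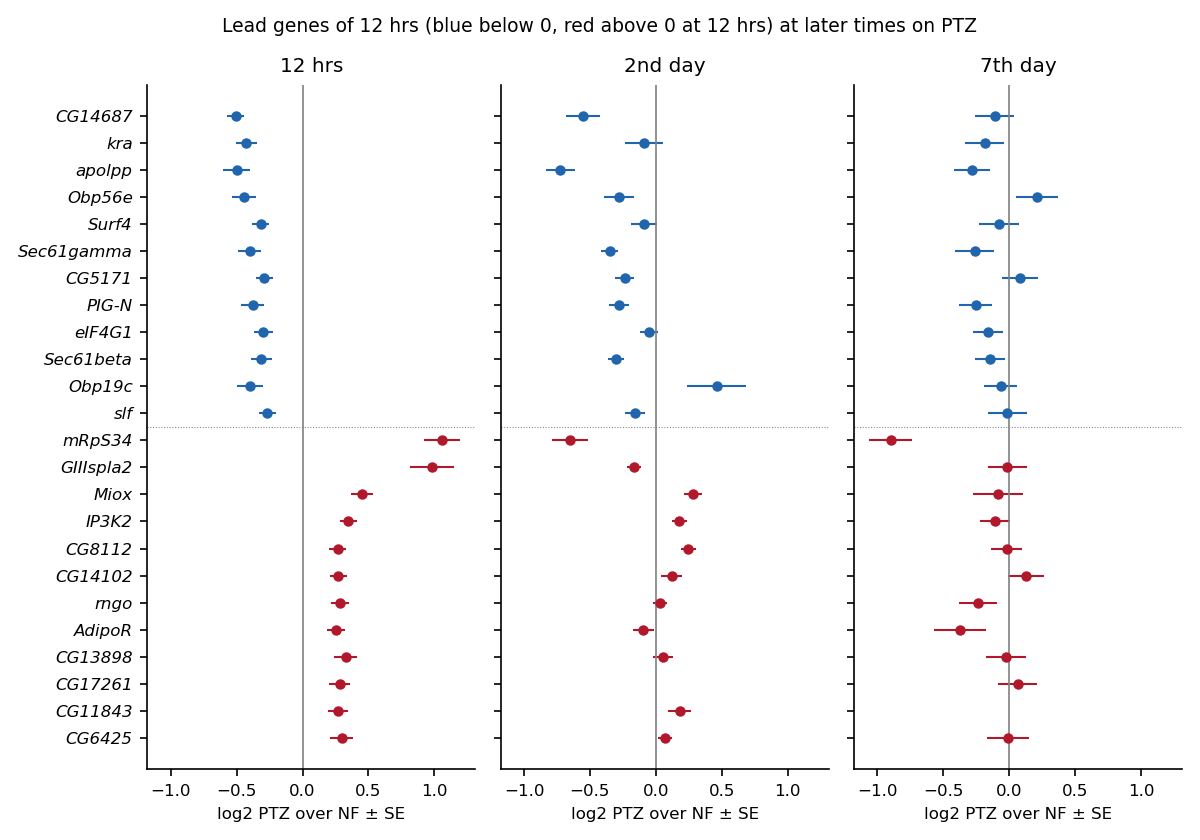
The 24 lead genes of 12 hrs are listed down the page and log2 PTZ over NF ± SE runs along each panel, for 12 hrs, the 2nd day and the 7th day (4 arrays each; a missing point had under 3 arrays). On the 2nd day 11 of the 12 genes in blue stay below 0, while mRpS34 and GIIIspla2 in red cross it, and on the 7th day most points lie nearer to 0.

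A like count was made over all features with an unadjusted p under 0.05 at 12 hrs. Of the 166 lower ones 120 were measured on the 2nd day, where 84 (70.0%) were below 0 beside 45.4% of all features. There 27 (22.5%) were lower at an unadjusted p under 0.05, beside 4.73% of all features, and these made up 12.9% of the 210 features lower on the 2nd day. In the opposite direction 8 (6.67%) were higher, beside 3.38%. Of the 183 higher ones 137 were measured, of which 15 (10.9%) were higher and 10 (7.30%) lower, and the 15 made up 10.0% of those higher on the 2nd day. The lower share was 11.5% without replicate 2 and 13.3% without replicate 3 of 12 hrs, and the higher share 17.8% without replicate 2. On the 7th day 56 of the 120 measured lower features (46.7%) were below 0, beside 58.7% of all features. There 6 (5.00%) were lower at an unadjusted p under 0.05, beside 7.15%, and 19 (15.8%) were higher, beside 5.13%, of which 16 were unnamed spot pairs. Of the 12 lead genes below 0 at 12 hrs 10 (83.3%) were below 0 on the 7th day, none with an unadjusted p under 0.05. Of 40 named genes below 0 on all 4 arrays at 12 hrs 26 (65.0%) were. Genes above 0 at 12 hrs had like shares below 0 on the 7th day. These were 9 of 11 measured lead genes (81.8%) and 45 of 66 named genes above 0 on all 4 arrays (68.2%). The labels of the 7th day's replicate 4 disagree, with withdrawal in its treatment text.

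Of the 27 features lower at both times 13 were named, and these names were picked after their values were seen. Beside the 6 lead genes and Gs2 they held Gbs-76A, a subunit that brings protein phosphatase to glycogen (-0.45 at 12 hrs and -0.20 on the 2nd day), Ac76E, an adenylate cyclase (-0.21 and -0.23), dsx, the sex determination transcription factor (-0.32 and -0.41), apt, a transcription factor gene (-0.26 and -0.30), CG12116 (-0.29 and -0.29) and CG46339 (-0.23 and -0.16). Of these, CG12116 was above 0 on 1 array at 12 hrs, and Gbs-76A, dsx, apt, Ac76E and CG46339 were above 0 on at least 1 dye swap. The 15 features higher at both times held 8 names. After Miox, IP3K2, CG8112 and Mal-A2 these were Loxl1, a lysyl oxidase that crosslinks matrix (0.40 and 0.41), Atg7, an enzyme of autophagosome formation (0.23 and 0.15), CG3556 (0.36 and 0.21) and CG2794 (0.19 and 0.28).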

How the data were processed

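RNA of fly heads was compared directly on cDNA arrays printed in duplicate spots. The authors normalized the scanned ratios with Acuity and filtered out spots that were saturated, weak or uneven. They deposited log2 ratios, Cy5 over Cy3, whose centring is not stated. Values at the ceiling of 16.6 (11 at 12 hrs) were set missing. Of 27648 rows, 15116 named 1 gene in the platform annotation, 102 several and 12430 none; symbols were updated where the gene table held the ID, which 222 rows lacked. Rows of 1 gene were averaged, unnamed neighbours likewise. The median of an array was subtracted, and the dye swaps, replicates 3 and 4 per the labels, were turned. Features on at least 3 arrays were tested with limma 3.58.1 in R 4.3.3 (lmFit and eBayes with a dye term, Benjamini-Hochberg), and functions were tested on simulated data. P-values and SEs rest on the spread within a dye orientation and on limma's prior. The dye term takes up the gap between orientations, so p-values do not measure all of the spread between 4 pooled samples. The number of arrays limits precision.

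Named genes were the 12 lower and 12 higher with the smallest p among those with 1 sign on 4 arrays, and, in 39 gene lists, up to 6 members with the smallest p and defining members. The members and lists were chosen with earlier results of these data known, the secretion and inositol lists from the values at 12 hrs. Genes named for their values at both times fall outside the rule. Alternatives covered centring, the dye term, arrays needed, single rows, eBayes settings, a shared fit, a replicate block, SAM and each replicate left out. Male arrays, climbing speed and sequences were not used here.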

Additional observations from a re-analysis of the deposited data

Results flagged for a closer look

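PIG-N had 1 array far from the others at 12 hrs, replicate 2 at -0.67 against -0.28, -0.29 and -0.28, the 1 such gene among 46 checked, where chance alone gives about 1 in 20. Other results differed in sign between times on every array. mRpS34 was higher by 1.71 at 12 hrs than on the 2nd day and by 1.96 than on the 7th day (adjusted p 0.425 and 0.133, limma). For GIIIspla2, 12 hrs minus the 2nd day was 1.15 (adjusted p 0.461), and for Pect it was -0.68 (adjusted p 0.633). For Tpi, 12 hrs minus the 7th day was 0.63, with -0.67, -0.67, -0.029 and -0.0060 on the 7th day, and for rngo it was 0.52 (adjusted p 0.327 for both). None of these differences passed an adjusted p under 0.05, and 1 array of the 7th day has labels that disagree.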

How the results depend on the processing

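A set of 64 named genes was followed through every alternative in which they were measured, 704 values in all. The sign at 12 hrs was kept in all of these, and no adjusted p fell under 0.05. For the lead genes in the set, chosen for a like sign on every array, leaving out a replicate or the dye term could not change the sign. Those alternatives are therefore no test of their sign. Some genes described above, such as Yp3, were not in the set. For PTZ over NF at 12 hrs no feature passed under any limma setting, nor at an adjusted p under 0.19, and SAM called 1. The counts at an unadjusted p under 0.05, 166 lower and 183 higher, were 81 and 56 without the dye term, 90 and 107 over the 3103 features on all 4 arrays, and 373 and 349 over 11842 single rows. With trend and robust eBayes 32 were lower and 146 higher. Leaving out a replicate gave 57 to 219 lower and 49 to 182 higher, the fewest of each without replicate 1. Those fits tested only features on all remaining arrays, so fewer than the main fit, and the counts are not of like totals. The replicate block in a shared fit gave 100 lower and 89 higher, against 128 of each without it, and called 0 differences between times. Same-numbered arrays of 12 hrs and the 2nd day had correlated deviations of 0.07 to 0.20, those of the 7th day 0.002 to 0.14. Differently numbered arrays of a like dye orientation had 0.04 to 0.26 and -0.03 to 0.04. These deviations still held the dye effect, and same-numbered arrays share an orientation. Numbers were not taken as pairs. For 12 hrs minus the 7th day 2 features passed without dye terms, 3 with trend and robust eBayes, and 0 to 1 with a replicate left out. The dye effect passed in 238 features with trend and robust eBayes. The share of lower features that were lower again on the 2nd day, with alternatives added after seeing the data, was 22.5% and ran from 11.5% to 27.3% with a replicate left out, and that of higher features, 10.9%, from 9.21% to 17.8%. The cause of these shifts was not tested.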
